A study of Mus musculus with 32 samples.

Results

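The 10 genes described here encode heat shock proteins of the cytosol and the mitochondrion. They were chosen by symbol (Hspa1a, Hspa1b, Hsph1, Hspa8, Hsp90aa1, Dnajb1, Hspb1, Hspe1, Hspd1 and Cryab), and all 10 were found among the 35275 genes of the count table. Their messenger RNA was measured by sequencing of poly(A) RNA from whole lungs of C57B/6 mice in 32 libraries. In the first experiment no surgery was recorded, and mice breathed room air (3 male and 3 female libraries) or cigarette smoke (5 male and 5 female libraries) for 5 months. In the second experiment every mouse was female and breathed smoke, after sham surgery or removal of the ovaries (ovariectomy), for 3 months (3 libraries per surgery) or 5 months (5 libraries per surgery). The second experiment has no air group. By sample title, the air and smoke libraries of the first experiment fall in separate number runs, as does each group of the second. What these runs stand for is not given, so a difference between runs cannot be told apart from smoke, surgery or time. The labels do not give the age of the mice, and they do not say whether each library came from its own mouse, so p-values measure the spread between libraries.

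Heat shock proteins are chaperones: they hold, fold or refold other proteins, and cells make more of the inducible ones when proteins unfold. The transcription factor HSF1 drives that induction by binding repeats of the letters GAA and TTC, the heat shock element, upstream of the genes. Hsp70 proteins work in a cycle with J-domain partners, which bring substrates, and exchange factors, which release nucleotide, while Hsp90 receives clients from them. In the mitochondrial matrix, the Hsp60 ring and its lid Hsp10 fold imported proteins. Small heat shock proteins bind unfolding proteins without using ATP.

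The upstream sequences show which members carry the letters of the element, and how alike the pair of inducible Hsp70 genes is. Of the 10 members, 7 have an entry among the RefSeq start sites (build GRCm38.p6), and the 250 bases before the start were searched on both strands for GAANNTTC or TTCNNGAA, which are 2 neighbouring units of the element. Such a match is in 12.8% of the 32851 upstream windows of all genes, so a single match is common. The windows of Hspa1a (chr17:34972157-34972406, minus strand) and Hspb1 (chr5:135887669-135887918, plus strand) are shown whole, and short windows are shown for Hsph1 (chr5:149636356-149636375, minus strand) and Hspe1 (chr1:55088053-55088082, plus strand), whose matches lie in annotated exon sequence. All are written 5′ to 3′, and capitals mark the GAA and TTC units of the matches.
Hspa1a: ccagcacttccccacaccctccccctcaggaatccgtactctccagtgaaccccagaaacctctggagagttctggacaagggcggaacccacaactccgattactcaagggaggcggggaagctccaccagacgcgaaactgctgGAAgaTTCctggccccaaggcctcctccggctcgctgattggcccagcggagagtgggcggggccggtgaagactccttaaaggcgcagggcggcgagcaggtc
Hspb1: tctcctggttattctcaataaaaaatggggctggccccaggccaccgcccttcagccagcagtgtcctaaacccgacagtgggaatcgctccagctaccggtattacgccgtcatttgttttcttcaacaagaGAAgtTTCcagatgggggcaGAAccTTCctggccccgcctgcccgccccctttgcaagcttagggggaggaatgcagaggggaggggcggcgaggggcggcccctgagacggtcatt
Hsph1: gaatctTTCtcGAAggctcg
Hspe1: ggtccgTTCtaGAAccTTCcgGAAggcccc

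In Hspa1a the match begins at position -104, counting -1 as the base before the start, and Hspb1 has matches at -117 and -97. Hspe1 has overlapping matches at -89, -84 and -79, which together span 18 bases. Runs of 3 units (GAANNTTCNNGAA or TTCNNGAANNTTC) are in 0.466% of all upstream windows, and among the 7 members with an entry only Hspe1 has them. The Hspe1 window lies inside the deposited interval of Hspd1 (chr1:55077835-55088243, minus strand), its neighbour on the other strand, and before the deposited start of Hspe1 (chr1:55088132-55091307, plus strand). The intervals of Hspe1 and Hspd1 overlap at their starts. These letters were not found in the windows of Dnajb1 and Hspd1, and Hspa8, Hsp90aa1 and Cryab had no entry. A match describes letters and is not a measured binding site.

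Hspa1a (chr17:34969190-34972156) and Hspa1b (chr17:34956436-34959238) are neighbouring copies on the minus strand. Their upstream windows differ at 3 of 250 bases (98.8% identity): C44T, T47C and T249G, written with the Hspa1a base first and counted from 1 at the 5′ end. Of the 75-base windows of the annotated Hspa1a transcript, 52.7% are also in Hspa1b, so reads from these stretches cannot be assigned to either copy by sequence. The sources used here do not say how such reads were counted, and the split between the copies is uncertain. Hspa1b held 62.7% to 80.7% of the counts of the pair (median 73.0%). The interval of Hspa1a also overlaps Gm20481, a gene on the other strand. The count table also holds 7 pseudogenes described as heat shock proteins. Whether they share sequence, and so reads, with the members was not checked.

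Library totals ran from 13790052 to 24497332 counts, and each member had at least 58 counts in every library. All 6 markers that define lung tissue here (Sftpc, Sftpb, Sftpa1, Ager, Scgb1a1 and Cldn18) were present in every group, with summed levels from 109271 to 224097 TPM (the deposited unit, counts per gene length as a share of each library). In whole lung, fewer cells of a type and less RNA per cell cannot be told apart. Male air library 3 stood apart from the rest in most members, so many of the levels, orders and comparisons in which it takes part are also given without it. Values given only with all libraries can also depend on it.

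On the TPM scale the members differed widely in level. Hspa8, the constitutive Hsp70, had the highest median over the 32 libraries at 1087 TPM, followed by Cryab, a small heat shock protein also abundant in lens and muscle, at 705 TPM. Hsp90aa1, the inducible cytosolic Hsp90, had a median of 584 TPM and the small heat shock protein Hspb1 a median of 395 TPM. The mitochondrial pair was close together, at 136 TPM for Hspe1 (Hsp10) and 122 TPM for Hspd1 (Hsp60). Dnajb1, the J-domain partner of inducible Hsp70, had a median of 63.5 TPM and Hsph1, an Hsp110 exchange factor, 44.3 TPM. Hspa1b and Hspa1a were lowest, at 19.6 and 8.49 TPM. Together the members summed to between 2693 and 5173 TPM per library (median 3188), with the highest sum in male air library 3.

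**Figure D1:**
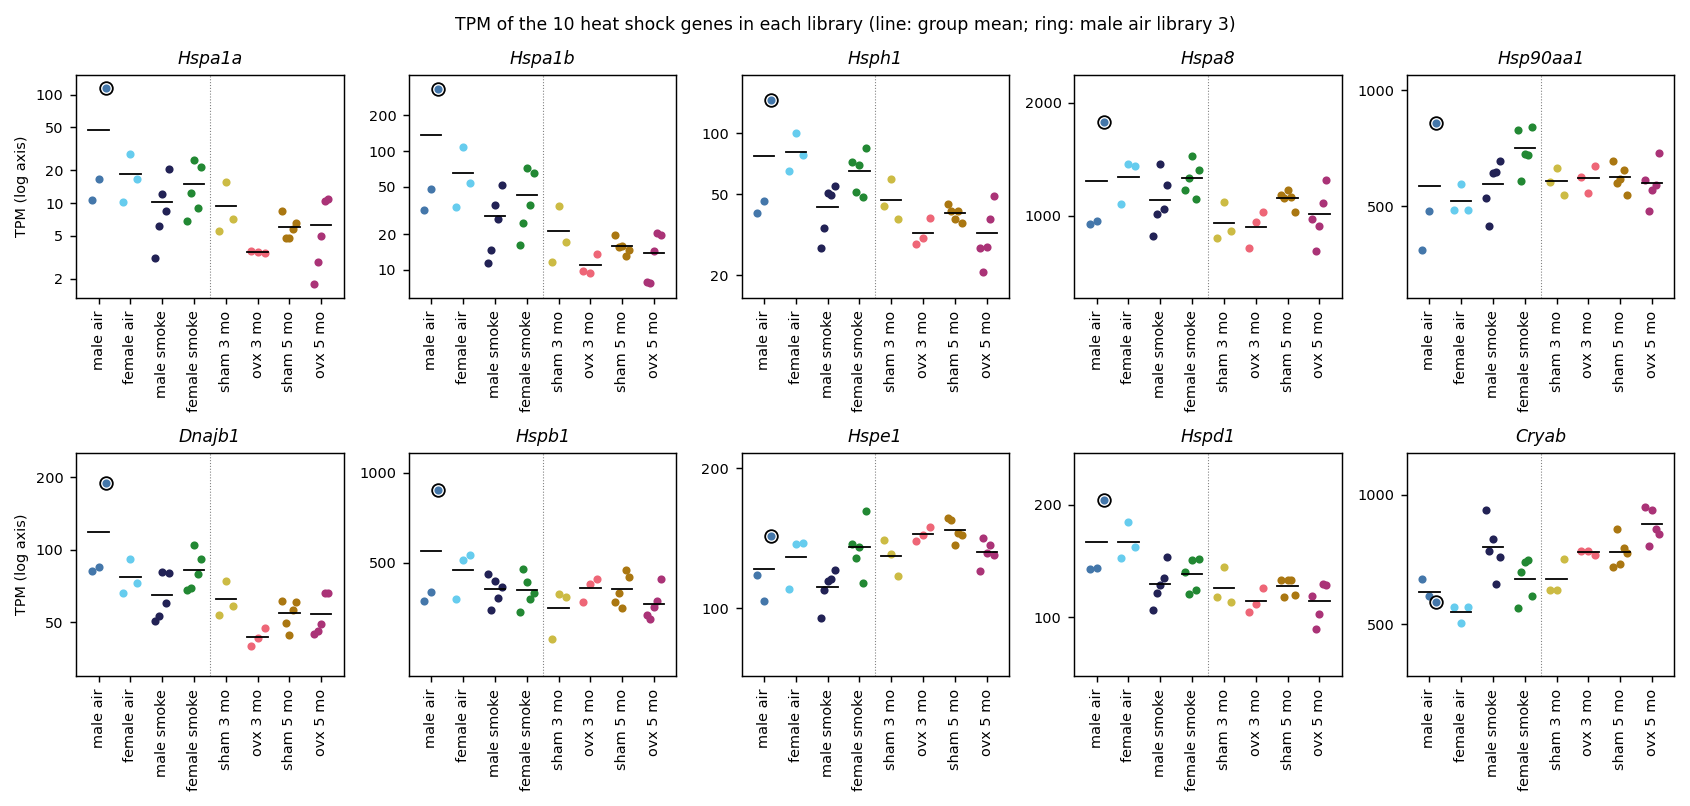
TPM (log axis) of each member in each library by group, with a line at the group mean and a ring around male air library 3; the dotted line parts the first experiment from the second. The ringed library lies above the other 31 in 8 of the 10 panels, and Hspa1a and Hspa1b spread furthest.

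The inducible Hsp70 genes were the least abundant members and the most variable. Hspa1a spanned 1.77 to 116 TPM over the 32 libraries, a 65.4-fold range that was 16.1-fold without male air library 3. Hspa1b spanned 42.9-fold, and 14.1-fold without that library. Hsph1 spanned 7.03-fold (4.85-fold without it) and Dnajb1 4.76-fold (2.62-fold). Hspb1 spanned 3.14-fold (1.90-fold without it). Hspd1, Hspa8 and Hsp90aa1 spanned between 2.13-fold and 2.22-fold (1.94-fold, 1.78-fold and 2.07-fold without that library). Cryab (1.86-fold) and Hspe1 (1.70-fold) varied least over all 32 libraries, and their ranges did not involve male air library 3. Without that library Hspa8 spanned less than Cryab.

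Hspa1a was at 10.6, 16.7 and 116 TPM in male air and at 10.1, 28.5 and 16.8 TPM in female air. It was at 3.11, 6.19, 12.1, 8.45 and 20.8 TPM in male smoke and at 6.79, 12.3, 25.1, 9.01 and 21.6 TPM in female smoke. In the second experiment it was at 5.57, 15.5 and 7.08 TPM in sham and 3.59, 3.56 and 3.47 TPM in ovariectomized females at 3 months. At 5 months the sham libraries ran from 4.74 to 8.52 TPM and the ovariectomized ones from 1.77 to 10.95 TPM. By mean TPM the groups ran from male air (47.7 ± 59.0, SD, n = 3), female air, female smoke and male smoke through sham at 3 months, ovariectomy at 5 months and sham at 5 months to ovariectomy at 3 months (3.54 ± 0.0631, SD, n = 3). Neighbouring groups in this order overlapped, except the last, sham at 5 months and ovariectomy at 3 months. The first place of male air rested on library 3: male air libraries 1 and 2 averaged 13.7 TPM, below female air (18.5 TPM) and female smoke. The experiments were set side by side without a test.

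Hspa1b followed the same outline at a higher level, with 32.1, 48.5 and 332 TPM in male air and 34.2, 109 and 54.0 TPM in female air. Its lowest group mean was again ovariectomy at 3 months (10.9 ± 2.22 TPM, SD, n = 3). Ovariectomy at 3 months was also the lowest group by mean in Hsph1, Hspa8, Dnajb1 and Hspd1. For these 5 genes every group overlapped its neighbours in the order of means. Without male air library 3, an alternative added after the data were seen, male air went from rank 1 to rank 3 of the 8 groups for Hspa1b (40.3 TPM, with female air first at 65.8 TPM) and stayed first for Dnajb1 (83.4 TPM). Male air went from rank 2 to rank 5 for Hsph1 (43.3 TPM) and from rank 3 to rank 6 for Hspa8 (963 TPM). Female air then lay wholly above male air, its neighbour, for Hspd1. Hspe1 had another order, highest in sham females at 5 months (147 ± 8.25 TPM, SD, n = 5) and lowest in male smoke (111 ± 9.78 TPM, SD, n = 5), again with every pair of neighbours overlapping. Male air libraries 1 and 2 alone averaged 111 TPM as well, and male air was then the lowest group. The same overlap of neighbours held for Hsp90aa1, highest in female smoke (706 ± 89.8 TPM, SD, n = 5), and for Hspb1, highest in male air (549 ± 283 TPM, SD, n = 3). For Hspb1 this place also rested on library 3: male air libraries 1 and 2 averaged 386 TPM, rank 6 of the 8 groups, and female air was then highest at 472 TPM. For Hsp90aa1 they averaged 436 TPM, which put male air lowest and wholly below female air.

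Cryab had another order of groups, with air lowest. It was at 636, 580 and 563 TPM in male air and at 549.5, 505 and 548 TPM in female air, the lowest groups by mean. The highest was ovariectomy at 5 months, at 939, 762, 924, 834 and 809 TPM (854 ± 76.1, SD, n = 5). Of neighbours in the order, ovariectomy at 3 months lay wholly above female smoke, and male air wholly above female air, while the others overlapped.

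Male air library 3 was the highest of the 32 libraries on the TPM scale in 8 of the 10 members, all but Hspe1 and Cryab. On CPM (counts scaled to library size) with TMM scaling, which is less moved by a few very abundant genes, it was highest in 7 of 10. Of all 17357 genes that passed the count filter, it was highest in 13.4% by TPM and in 8.92% by TMM-scaled CPM. Set against the mean of male air libraries 1 and 2, its TPM was 8.47-fold for Hspa1a, 8.24-fold for Hspa1b and 3.36-fold for Hsph1. The ratio was 2.27 for both Dnajb1 and Hspb1, 1.89 for Hsp90aa1, 1.85 for Hspa8 and 1.53 for Hspd1. It was 1.29 for Hspe1 and 0.926 for Cryab. A single library has no replicate, so these ratios describe that library.

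Other genes of the heat shock response were high in the same library. Of 16 further HSF1 targets it was highest of 32 in 12 by TPM and in 9 by TMM-scaled CPM. Dnaja1, a J-domain protein, was at 88.1, 93.1 and 200 TPM in male air libraries 1, 2 and 3. Serpinh1, the collagen chaperone Hsp47, was at 423, 393 and 771 TPM, and Bag3, an Hsp70 exchange factor, at 86.1, 92.0 and 161 TPM. Hsf1 itself was at 40.0, 36.5 and 46.9 TPM, and male air library 3 was highest in none of the 4 heat shock factor genes that passed the filter.

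Genes outside the heat shock response stood out there as well. Of 18 immediate early genes, which are switched on within minutes of many stimuli, the library was highest in 14 on either scale. Nr4a1 was at 42.5, 73.9 and 177 TPM and Egr1 at 19.8, 30.3 and 59.7 TPM in male air libraries 1, 2 and 3. Of 15 endoplasmic reticulum chaperones it was highest in 8 by TPM and in 6 by TMM-scaled CPM. Cirbp, an RNA-binding protein made more at low temperature, moved the other way, at 123, 107 and 69.4 TPM, and ranked 31 of 32 there.

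Cell markers differed in the same library too. The summed level of 8 erythroid markers was 10348, 13490 and 35936 TPM in male air libraries 1, 2 and 3, and that of 7 club cell markers was 131336, 108501 and 50995 TPM. The sum of 10 capillary markers was 2479, 2804 and 3723 TPM. The erythroid sum of library 3 was above the whole range of male smoke (23443 to 33943 TPM). The part of these markers in the heat shock values was not tested.

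**Figure D2:**
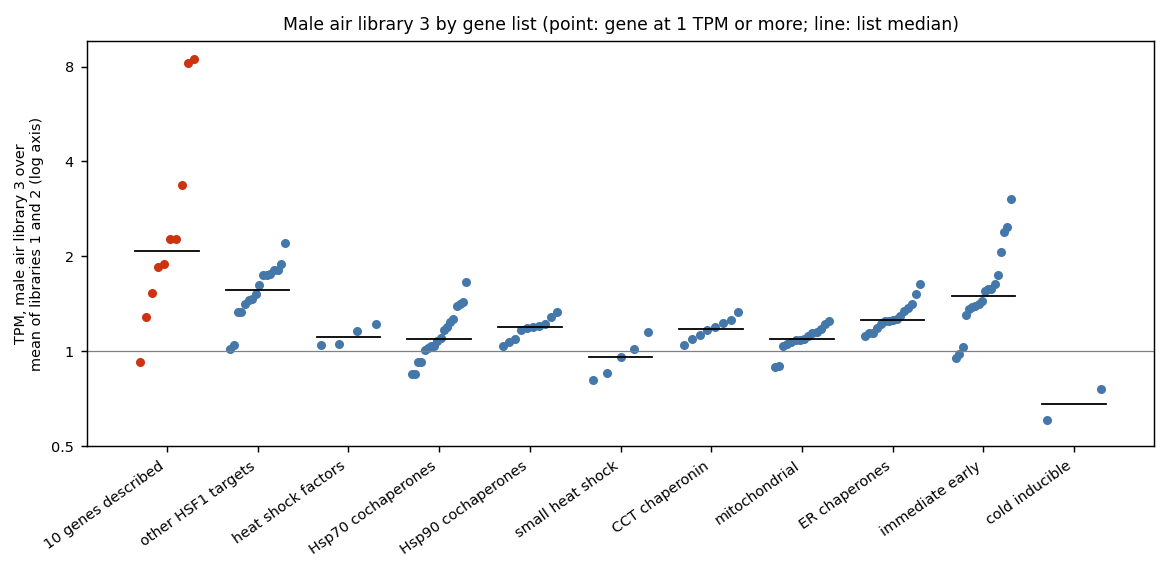
TPM of male air library 3 divided by the mean of male air libraries 1 and 2 (log axis), by gene list; each point is a gene with a mean of at least 1 TPM in libraries 1 and 2, and each line is a list's median. Hspa1a and Hspa1b stand above 8, Cryab is the member below 1, and both cold-inducible genes, Cirbp and Rbm3, are below 1.

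The members also varied together within groups. In the 5 male smoke libraries, library 5 was the highest of its group in 6 members and library 1 the lowest in 7. In female air, library 1 was the lowest in 8 members and library 2 the highest in 7. In ovariectomized females at 5 months, library 5 was the highest in 6 members and library 2 the lowest in 7. The share of all genes highest or lowest in these libraries was not computed. The labels name no batch, time of day or order of collection for these libraries.

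**Figure D3:**
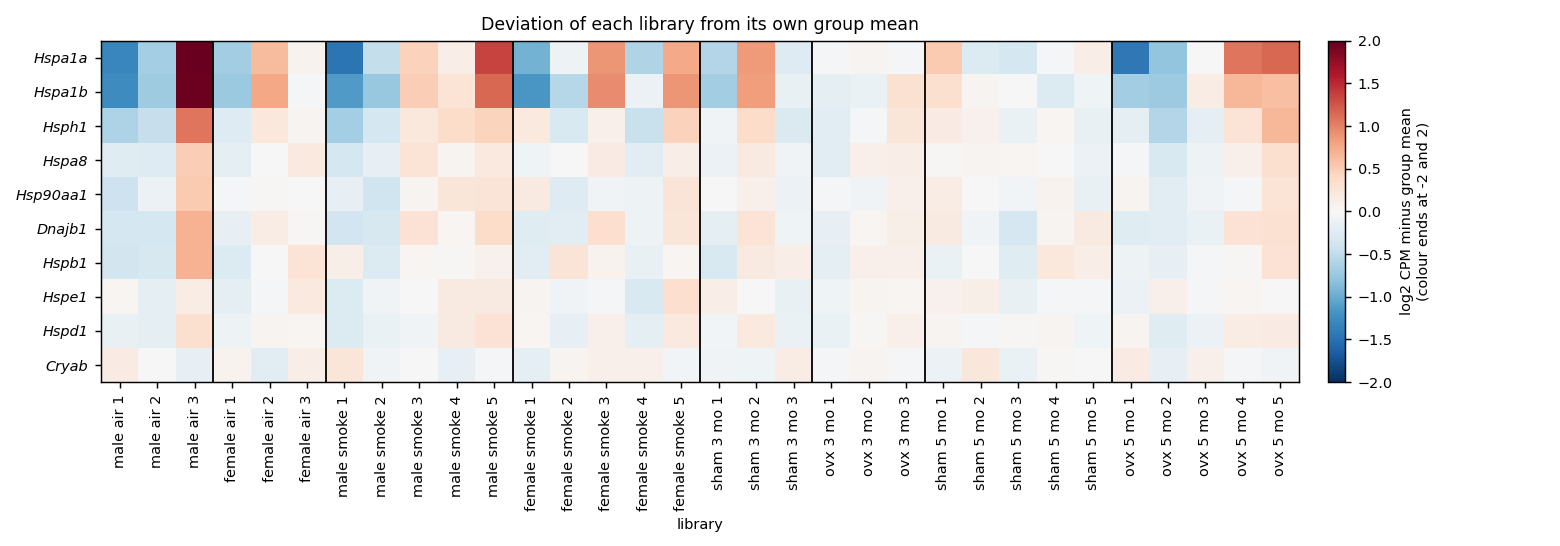
Log2 CPM of each member in each library minus the mean of its own group; red is above and blue below the group mean, and black lines part the groups. The rows of Hspa1a and Hspa1b carry the deepest colours, and in male air 3 Cryab is the 1 member below its group mean.

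Co-variation was measured over the 32 libraries as the correlation of log2 CPM with group means removed, for all 45 pairs of members. The p-values come from 100000 permutations of libraries within groups and are adjusted over the 45 pairs. Pearson's r was above 0 in 37 pairs, with a median of 0.65. By r, 36 pairs had an adjusted p under 0.05, and by Spearman's rho 34 did. Among them are negative pairs of Cryab, with Hsph1 and Hsp90aa1 by both measures and with Hspd1 by r. Pairs of genes outside the members were not computed, so these counts and medians have no background share beside them. Without male air library 3, an alternative added after the data were seen, the median was 0.53 and the counts were 26 by r and 28 by rho. Within the first experiment the median was 0.71, and within the second 0.53.

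The closest pair by r was Hspa1a with Hspa1b (r = 0.94, permutation p = 1e-05, adjusted p = 9e-05, and rho = 0.91, p = 1e-05, adjusted p = 7.5e-05). This p of 1e-05 is the smallest the permutations can give, and the copies share sequence as described above. Without male air 3 and male smoke 1, the libraries farthest from the median of Hspa1a, r was 0.90. Hspa1a with Dnajb1 was next by r (r = 0.924, permutation p = 1e-05, adjusted p = 9e-05), at 0.88 without the same libraries. Its rho was 0.9260. Hsph1 with Hspd1, a cytosolic exchange factor with the mitochondrial chaperonin, followed by r (r = 0.917, permutation p = 1e-05, adjusted p = 9e-05). By rho this pair was the closest (rho = 0.9263, p = 1e-05, adjusted p = 7.5e-05). Without the same libraries, the farthest for Hsph1 as well, that r was 0.89.

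Hspe1 and Hspd1, which share a start region and work as 1 machine, were correlated over all libraries (r = 0.61, permutation p = 0.00232, adjusted p = 0.00475; rho = 0.57, p = 0.00404, adjusted p = 0.00757). Leaving out female smoke 4 and 5 gave r = 0.55. Within the first experiment their r was 0.82, and within the second -0.0020. That difference between experiments was not tested.

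Cryab was the member whose correlations were mostly negative, with r below 0 in 8 of its 9 pairs, and 0.0086 with Hspb1. The most negative was with Hsph1 (r = -0.49, permutation p = 0.0174, adjusted p = 0.0261; rho = -0.49, p = 0.0158, adjusted p = 0.0245). It rested on few libraries: r was -0.28 without male air 3 and male smoke 1, and -0.41 (adjusted permutation p = 0.0755) without male air 3 alone.

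**Figure D4:**
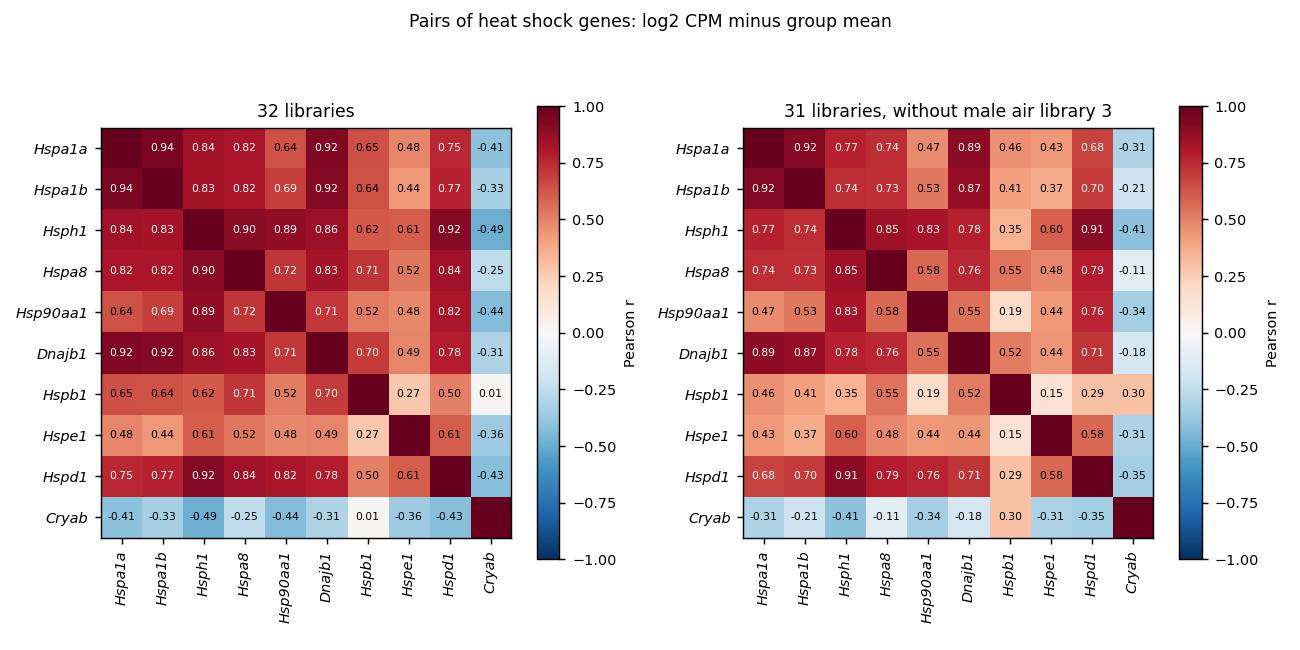
Pearson r of log2 CPM with group means removed for each pair of members, over 32 libraries (left) and over 31 without male air library 3 (right). Every pair without Cryab is positive in both panels, the highest on the left being Hspa1a with Hspa1b at 0.94, and the Cryab row is mostly negative.

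The genes most like each member in these deviations were sought among 10768 genes (mean log2 CPM over all libraries 3 or more), and r is given as a description. Dnaja1 was the most like Hspa1a (r = 0.89), Hspa1b (0.85) and Dnajb1 (0.86), and it remained first for all of them without male air library 3. Cacybp, which encodes a calcyclin-binding protein, was first for Hsph1 (0.89), Hsp90aa1 (0.81) and Hspd1 (0.86), and without that library it remained first for Hsph1 and Hspd1. Fkbp4, an Hsp90 cochaperone, was first for Hspa8 (0.88, and first without that library). Hsp90ab1, the constitutive cytosolic Hsp90, was first for Hspb1 (0.85) and number 3 without it. For Hspe1 the first was Manf (0.74), which was not among the first 3 without that library. Cryab had genes outside this response: Clic3 (0.90), Anxa5 (0.84) and Krt7 (0.83), the same 3 genes without male air library 3.

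Whether smoke changed these genes was asked first in males, at 5 months. Cryab was the member that passed the test. It was at 921, 741, 787, 620 and 715 TPM in smoke against 636, 580 and 563 TPM in air, with 4 of 5 smoke libraries above every air library. Its log2 fold change was 0.38 (SE 0.11, 1.30-fold, adjusted p = 0.0263), and it was no longer called when male air 2, male air 3 or male smoke 1 was left out (adjusted p up to 0.157). Of all genes tested, 10.3% were called, so 1 of 10 members is near that background.

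Markers of type 1 alveolar cells rose in the same comparison, 7 of 9 with none fallen, where 806 of the 16361 genes tested rose. Their summed level was 7915 to 8482 TPM in male air and 8771 to 12270 TPM in male smoke, without overlap. Of cardiac markers, where Cryab is also abundant, the sums overlapped (439 to 580 against 235 to 573 TPM). The sums of 9 skeletal muscle markers were 18.7 to 26.4 TPM in male air and 8.92 to 16.5 TPM in male smoke, without overlap. Of these 9, Tnnc2, Myh1, Myh2 and Myh4 had medians over the 32 libraries below 0.1 TPM. The part of these cells in the Cryab value was not tested.

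The other members had lower levels in male smoke or differed little, and none passed the test. Hspa1a had a log2 fold change of -2.11 (SE 0.75, adjusted p = 0.105), which was -0.42 without male air library 3 (adjusted p = 0.806). Hspa1b was at -2.16 (SE 0.76, adjusted p = 0.0987), and at -0.51 without that library. In both copies, libraries of smoke and air overlapped.

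Dnajb1 was at 50.8, 53.0, 80.9, 60.1 and 79.8 TPM in male smoke and at 82.0, 84.8 and 189 TPM in male air, without overlap. How many of all genes lacked overlap was not counted, here or in the comparisons below. Its log2 fold change was -0.80 (SE 0.25, adjusted p = 0.0641), and -0.37 (adjusted p = 0.365) without male air library 3. Without male air library 1 or 2 in place of 3 it passed the test (adjusted p = 0.0400 and 0.0450). Dnajb1 was also called by DESeq2 (adjusted p = 0.0265), together with Hspa1a, Hspa1b and Cryab.

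Hsph1 had a log2 fold change of -0.74 (SE 0.38, adjusted p = 0.267) that was 0.0015 without male air library 3. Hspd1 was at -0.31 (SE 0.13, adjusted p = 0.131) and -0.15 without it, and Hspb1 at -0.37 and 0.063. Hspa8 turned from -0.10 to 0.18 and Hsp90aa1 went from 0.077 to 0.38 without that library. Hspe1 was at -0.083 and -0.012. Over the 10 members the median log2 fold change was -0.34 in males, against 0.0073 over all genes tested, and 8 of the 10 values were negative. Without male air library 3 the median was -0.0053 and 5 of the 10 were negative.

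**Figure D5:**
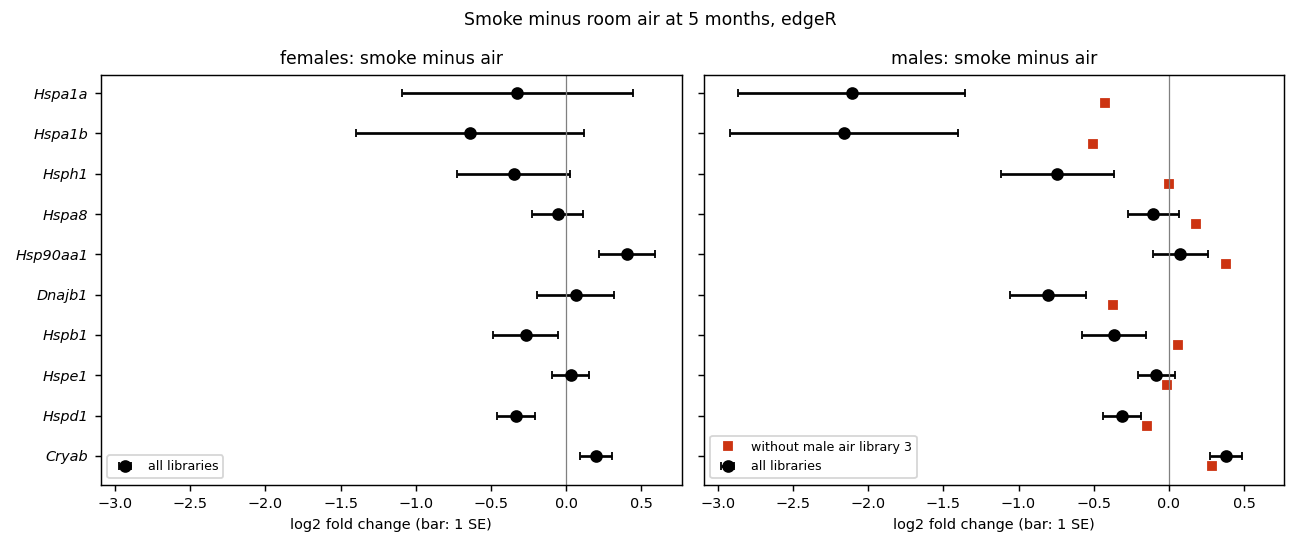
Log2 fold change of smoke over room air for each member in females (left) and males (right), with bars of 1 SE; red squares give males without male air library 3. In males the squares of Hspa1a (-0.42) and Hspa1b (-0.51) lie far from the values with all libraries (-2.11 and -2.16).

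In females 0 of 10 members were called between smoke and air by edgeR, DESeq2 or limma, where 7.7% of all genes were called by edgeR, and 2 members had an unadjusted p under 0.05. Hspd1 was at 132, 115, 142, 118 and 143 TPM in smoke and at 144, 180 and 154 TPM in air, without overlap (log2 fold change -0.33, SE 0.13, adjusted p = 0.123). Hsp90aa1 was at 787, 582, 684, 678 and 801 TPM in smoke and at 491, 572 and 489 TPM in air, also without overlap (0.41, SE 0.19, adjusted p = 0.219). Cryab was at 0.20 (SE 0.11, adjusted p = 0.288). Hspa1a (-0.32, SE 0.77) and Hspa1b (-0.64, SE 0.76) had wide errors. The median over the members was -0.16, against -0.013 over all genes tested.

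The difference between the sexes in the response to smoke was tested as an interaction, and 0 of 10 members were called by edgeR, DESeq2 or limma (0.00611% of all genes by edgeR). Dnajb1 had an unadjusted p under 0.05 (interaction 0.87, SE 0.36, adjusted p = 0.854), and the value was 0.44 without male air library 3. Without that library the interaction went from 1.78 to 0.097 for Hspa1a and from 1.52 to -0.14 for Hspa1b. Between females and males in air, 0 of 10 members were called by these tools, where 0.177% of all genes were called by edgeR. An unadjusted p under 0.05 was found for 0 members. Without male air library 3, this log2 fold change went from -1.27 to 0.42 for Hspa1a and from -0.97 to 0.69 for Hspa1b. It went from -0.14 to 0.30 for Hspb1, from -0.055 to 0.25 for Hsp90aa1 and from 0.15 to 0.90 for Hsph1. In smoke, 0 of 10 were called by these tools and 2 had an unadjusted p under 0.05, where 0.189% of all genes were called by edgeR. These were Cryab, lower in females (-0.27, SE 0.09, adjusted p = 0.437), and Hspe1, higher in females (0.25, SE 0.11, adjusted p = 0.614). Hspe1 was at 138, 128, 135, 113 and 162 TPM in female smoke and at 95.1, 109, 114, 115 and 121 TPM in male smoke, and the groups overlapped.

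Other genes of the response were taken from lists. In male smoke, 4 of 16 further HSF1 targets fell and none rose, where 5.33% of all genes fell. Serpinh1 (-0.55, adjusted p = 0.0129), Hsp90ab1 (-0.44, adjusted p = 0.0242) and Dedd2 (-0.45, adjusted p = 0.0275) were among them. Leaving out male air 3 removed these 3 calls, leaving out male smoke 2 removed those of Hsp90ab1 and Dedd2, and leaving out male smoke 1 removed that of Dedd2 (adjusted p up to 0.316). Without male air 3, 1 of the 16 fell. The list's median log2 fold change was -0.24, and -0.089 without that library.

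Of 18 immediate early genes, 5 fell and 1 rose in male smoke, against 5.33% of all genes fallen. The list's median log2 fold change was -0.64. Without male air library 3 it was -0.47, and 1 gene fell and 1 rose. Zfp36, which encodes an mRNA decay factor, was at 92.8 ± 3.47 TPM (SD, n = 5) in smoke and 181 ± 40.5 TPM (SD, n = 3) in air (-0.91, adjusted p = 7.5e-06), and Ier3 rose (0.83, adjusted p = 0.00225). Klf2 (-0.95, adjusted p = 0.00864), Jun, Klf4 and Btg2 fell, and leaving out male air 3 removed all 4 of these calls (adjusted p up to 0.172). That of Btg2 was also lost when male air 2, or male smoke 1, 2 or 3, was left out. Zfp36 and Ier3 were called without each library in turn. Of 15 endoplasmic reticulum chaperones, Dnajb11 and Calr fell, and leaving out either male air 3 or male smoke 2 removed both calls. Of 18 Hsp70-family and cochaperone genes Hspa12b fell, which was lost when male air 2, male air 3 or male smoke 5 was left out. None of the 4 heat shock factor genes, 10 Hsp90 cochaperones, 8 genes of the cytosolic chaperonin CCT, 14 mitochondrial chaperones and proteases, 5 other small heat shock genes or 2 cold-inducible genes was called in males.

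Cell markers and transcripts of the mitochondrial genome moved in the same comparison of male smoke with air. Of 10 capillary markers 9 fell and none rose, with sums of 2479 to 3723 TPM in air and 1419 to 2011 TPM in smoke, and male air 3 highest. Of 8 fibroblast markers 4 fell and none rose, with sums of 1547 to 2218 TPM in air, again highest in male air 3, and 1070 to 1180 TPM in smoke. Neither pair of sums overlapped, with or without male air 3. Of 9 mitochondrially encoded genes 4 rose and none fell, with overlapping sums of 24980 to 35104 TPM in air and 30326 to 40739 TPM in smoke. Of 7 liver markers 5 fell, with sums of 443, 86.1 and 1.98 TPM in male air libraries 1, 2 and 3 and 0.623 to 2.23 TPM in smoke. The sum of male air library 3 thus lay inside the range of smoke. Ambp, Apoc3, Fgb and Serpina1a had medians over the 32 libraries below 0.1 TPM. The part of these markers in the falls of HSF1 targets and immediate early genes was not tested.

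In female smoke, 1 of 16 further HSF1 targets fell, where 3.18% of all genes fell: Ahsa1, the activator of the Hsp90 ATPase (-0.42, adjusted p = 0.0258). Cct3, 1 of 8 CCT subunits, fell (-0.30, adjusted p = 0.0230), and so did Hspb6, 1 of 5 other small heat shock genes and abundant in smooth muscle (-0.61, adjusted p = 0.0298). Leaving out female air 2, female air 3 or female smoke 4 removed these 3 calls, and leaving out female smoke 2 removed that of Cct3 (adjusted p up to 0.186). Of smooth muscle markers, 4 of 8 fell in the same comparison, with sums of 540 to 656 TPM in air and 274 to 439 TPM in smoke. Capillary markers (8 of 10) and fibroblast markers (4 of 8) fell as well. Of 9 mitochondrially encoded genes 4 rose, where 739 of the 16361 genes tested rose. The part of these markers in the value of Hspb6 and the other genes was not tested. Of 18 immediate early genes Zfp36 fell (-0.65, adjusted p = 3.6e-04), a call kept without each library in turn, and Fosl2 rose. Of the Hsp70-family and cochaperone genes Hspa12b fell and Hspa12a rose, and of the endoplasmic reticulum chaperones Hsp90b1 rose. Each of the last 4 calls was lost for at least 5 of the 8 libraries when that library was left out.

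Ovariectomy was compared with sham surgery in smoke-exposed females. At 3 months 0 of 10 members were called by edgeR, DESeq2 or limma, and edgeR called 0.0% of all genes, while 4 members and 1568 of all genes had an unadjusted p under 0.05. Dnajb1 was at 39.8, 43.1 and 47.2 TPM after ovariectomy and at 53.8, 74.4 and 58.4 TPM after sham surgery, without overlap (log2 fold change -0.47, SE 0.17, adjusted p = 0.406). Hspa1a, with no overlap either, was at -1.36 (SE 0.60, adjusted p = 0.526). Cryab was at 742, 739 and 723 TPM against 600, 599 and 707 TPM (0.26, SE 0.10, adjusted p = 0.406), again without overlap. Hspe1 was at 0.21 (SE 0.09, adjusted p = 0.494), with overlapping groups. The share of all genes without overlap at 3 months was not computed.

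At 5 months 0 of 10 members were called by edgeR, where 1.36% of all genes were called, and 1 member had an unadjusted p under 0.05. Cryab was at 939, 762, 924, 834 and 809 TPM after ovariectomy and at 680, 833, 692, 752 and 732 TPM after sham surgery, and only ovariectomy libraries 2 and 5 were below the highest sham library. Its log2 fold change of 0.28 (SE 0.07, 1.21-fold) had an adjusted p of 0.0598. It was called by DESeq2 (adjusted p = 0.0113), with no filter on low counts, and without sham library 2 or ovariectomy library 2. Summed markers of type 1 alveolar cells were at 12597 to 13793 TPM after ovariectomy and 11024 to 13842 TPM after sham surgery, overlapping. Of the 9 markers 1 rose, where 99 of the 16874 genes tested rose. The part of these markers in the Cryab value was not tested.

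Hspa1a, Hspa1b and the other members had log2 fold changes between -0.24 and 0.11 at 5 months. The difference between times in the effect of ovariectomy was called in 0 of 10 members by edgeR, DESeq2 or limma (0.0% of all genes by edgeR, with 844 at an unadjusted p under 0.05). Hspe1 (-0.30, SE 0.12) and Dnajb1 (0.54, SE 0.21) had an unadjusted p under 0.05 (both with an adjusted p of 0.938).

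Among other genes of the response at 5 months, Hspa4l (-0.32, adjusted p = 0.0482) and Serpinh1 (-0.28, adjusted p = 0.0495) fell, 2 of 16 HSF1 targets, where 0.776% of all genes fell. The call of Hspa4l was lost when any 1 of the 10 libraries was left out, and that of Serpinh1 for every library but ovariectomy 5 (adjusted p up to 0.123). Of 15 endoplasmic reticulum chaperones, 2 fell and none rose. Creld2 was at 63.3 ± 7.49 TPM (SD, n = 5) after ovariectomy and 89.1 ± 3.70 TPM (SD, n = 5) after sham surgery (-0.42, adjusted p = 0.0145), a call kept without each library in turn. Manf, a secreted protein of the endoplasmic reticulum stress response, was at 93.4 ± 10.2 and 133 ± 13.6 TPM (SD, n = 5 each; -0.45, adjusted p = 0.0179), lost when sham 1 or ovariectomy 1 was left out. Rbm3, 1 of the 2 cold-inducible genes, rose (0.70, adjusted p = 0.0264), lost when sham 1, 4 or 5 or ovariectomy 1 or 3 was left out (adjusted p up to 0.0790). None of the 18 immediate early genes, 8 CCT genes or 14 mitochondrial chaperones and proteases was called.

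Time in smoke was compared within each surgery. From 3 to 5 months 0 of 10 members were called in sham females by edgeR, DESeq2 or limma (0.00593% of all genes by edgeR), and 3 had an unadjusted p under 0.05. These were Cryab (0.24, SE 0.09, adjusted p = 0.387), Hspe1 (0.22, SE 0.08, adjusted p = 0.437) and Hspa8 (0.24, SE 0.11, adjusted p = 0.541), all higher at 5 months and all with overlapping groups. In ovariectomized females 0 of 10 were called by these tools (0.0178% of all genes by edgeR), and 2 had an unadjusted p under 0.05. Cryab was at 0.27 (SE 0.09, adjusted p = 0.307), with every library at 5 months above every library at 3 months, and Dnajb1 at 0.37 (SE 0.15, adjusted p = 0.449), with overlap.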

How the data were processed

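The authors deposited whole-number counts per Ensembl gene and, for 35186 of 35275 genes, TPM. The TPM unit was settled from the values: 100% of them were recomputed from the deposited counts and gene lengths within a tolerance of 1e-06. The submitters' processing notes name FastQC, GRCm38 and mm10; the aligner is not given in the sources used here, nor is the counter. Per the labels, Trizol RNA went into NEBNext Ultra 2 libraries.

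Counts of each experiment were tested with edgeR 4.0.16 (R 4.3.3): filterByExpr, TMM, 1 mean per group, robust quasi-likelihood F test and Benjamini-Hochberg adjustment over all genes tested (16361 and 16874), with calls at an adjusted p under 0.05. All 10 members passed the filter in both experiments. DESeq2 1.42.0 and limma 3.58.1 on log2(TPM + 1) were alternatives, with RLE scaling, other filters, other sample sets, the replicate block, the Hspa1 copies summed, and each library left out. Log2 CPM used a prior count of 2. On simulated data, 65.5% of 200 genes changed 2-fold were called for smoke in females and 66.0% for ovariectomy at 5 months. No 2 libraries of a group were near-copies.

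The members, lists and tests were chosen with earlier results of these data known, and 3 list genes (Cfap126, Siglecf and Jchain) were not matched. Named list genes were the 3 with the smallest p per list and comparison; called genes beyond these, and those named for male air library 3, were picked after their values were seen. In the list of further HSF1 targets, 1 called gene is counted but not reported here by name. Python 3.11.15 and matplotlib 3.10.9 drew the plots.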

Additional observations from a re-analysis of the deposited data

How the results depend on the processing

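Between smoke and air in males, the count of members called was 1 and became 4 with DESeq2 or with all 32 libraries in 1 fit, and 0 with limma on log2(TPM + 1). With each library left out in turn it ran from 0 to 2. In females the count of 0 became 1 (Hsp90aa1) with only the groups compared. For ovariectomy at 5 months the count of 0 became 1 (Cryab) with DESeq2 or no filter on low counts, and ran from 0 to 1 with libraries left out. In the other comparisons the count stayed at 0 under each alternative run. The median r over pairs of 0.65 became 0.528 in the second experiment alone and 0.529 without male air library 3; a move of more than 0.1, a limit set after the pair values were seen, was counted as a change.

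With the replicate number as a block, 5 members were called for smoke in males and 1 (Hspd1) in females. The block turned the log2 fold changes of Dnajb1 (-0.0623) and Hspe1 (-0.0376) in females and Hsp90aa1 (-0.0196) in males. Whether the numbers pair the libraries cannot be settled with so few libraries per group. In no comparison did every same-numbered pair correlate above 0.1 (for smoke in males -0.0519 to 0.141 over 3 pairs). Every library correlated best with its own number for smoke in females and for ovariectomy at 3 months (3 of 3 pairs each), a hint from the data and not from the design.

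Of 35 gene values (all members in both smoke comparisons, and elsewhere those with an unadjusted p under 0.05, a choice made after the main results were seen), 27 never changed sign, and 14 of 612 alternative values did. With a library left out, the log2 fold change in females ran from -0.0274 to 0.128 for Dnajb1, -0.609 to 0.0319 for Hspa1a, -0.149 to 0.0365 for Hspa8 and -0.0600 to 0.124 for Hspe1. In males it ran from -0.136 to 0.378 for Hsp90aa1, -0.267 to 0.182 for Hspa8, -0.580 to 0.0625 for Hspb1 and -1.05 to 0.0015 for Hsph1, with the upper end in all 4 without male air library 3. The cause of these changes was not tested. The spread between libraries limits Hspa1a and Hspa1b most, with an SE of 0.75 and 0.76 for smoke in males.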
